A study of Mus musculus with 13 samples.

Results

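The levels of 10 genes of the contacts between the endoplasmic reticulum (ER) and the plasma membrane were followed in mouse brown fat, a tissue whose cells produce heat from stored and imported fuel. They were chosen by name from the deposited count table: Esyt1, Esyt2, Gramd1a, Gramd1b, Gramd1c, Osbpl5, Osbpl8, Vapa, Vapb and Sacm1l. All 10 were found among 55357 genes, and all 10 passed the filter on low counts that left 11073 genes for testing. The bulk tissue of 13 mouse samples fell into 4 groups. The Stim1/2_Adp-Cre genotype (KO) had both Stim genes floxed and deleted where Cre was made from the adiponectin promoter, which is active in fat cells. The Stim1/2_fl/fl genotype (control) carried the floxed alleles with no Cre named. There were 4 KO cold and 4 control cold samples, taken after 6 h at 4 °C, and 3 KO RT and 2 control RT samples from mice kept at room temperature (RT). All carried 1 batch label, and the labels gave no age, sex or strain. Whether each sample was a separate animal is not stated in the labels. The p-values below therefore refer to the spread among these samples, which may be technical.

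At these contacts the ER lies close against the cell surface, and lipids and calcium pass across the gap. STIM1 and STIM2 sense calcium in the ER and open calcium channels of the plasma membrane at such sites. The genes followed here encode the other machinery of the contact: VAP proteins that anchor partners on the ER, extended synaptotagmins that tether and carry glycerolipids, GRAMD1 (Aster) proteins that carry cholesterol, ORP5 and ORP8 (from Osbpl5 and Osbpl8) that swap phosphatidylserine for phosphatidylinositol 4-phosphate, and SAC1 (from Sacm1l), the ER phosphatase that removes that phosphate and so keeps the exchange running.

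Each library held 1570684 to 2016178 counts and detected 15506 to 17061 genes. Levels are given in CPM, counts rescaled to 1 shared library size, and the QuantSeq kit reads 1 tag near the 3′ end of a transcript, so levels are not divided by gene length. Stim1 had 81.4, 78.8, 96.8 and 107.8 CPM in the KO cold libraries, against 129, 120.5, 134 and 114 CPM in the control cold libraries. At RT it had 74.0, 62.0 and 86.1 CPM in the KO libraries, against 149.9 and 126 CPM in the control libraries. Stim2 averaged 22.9 ± 7.05 CPM in KO cold (SD, n = 4), 42.7 ± 12.8 CPM in control cold (SD, n = 4), 22.8 ± 2.18 CPM in KO RT (SD, n = 3) and 34.7 ± 8.07 CPM in control RT (SD, n = 2). Neither gene overlapped between genotypes at either temperature. Only Stim2 in cold passed the test (log2 fold change −0.88 ± 0.24 (SE), adjusted p = 0.0382 in edgeR's quasi-likelihood test), while Stim1 in cold had an adjusted p of 0.0570. At RT Stim1 was at −0.90 ± 0.17 (adjusted p = 0.349). The tag can fall outside the removed exons, and cells without Cre keep both genes, and the part of either in these levels was not tested. Ucp1, the uncoupling protein of brown fat, averaged 6641 ± 350.2 CPM in KO cold, 8741 ± 839 CPM in control cold, 3183 ± 649 CPM in KO RT and 3521 ± 474 CPM in control RT, and rose in cold in both genotypes (log2 fold change 1.06 in KO and 1.31 in control). All 10 brown adipocyte markers were detected in every group, with summed levels of 22744 to 24283 CPM in KO cold, 24228 to 28734 CPM in control cold, 17015 to 19329 CPM in KO RT and 17245 to 19314 CPM in control RT. The 10 skeletal muscle markers summed to 0.612 to 261 CPM in KO cold, 1.24 to 202 CPM in control cold, 76.1 to 1276 CPM in KO RT and 18.7 to 2106 CPM in control RT, and stood above 500 CPM in 3 libraries, KO RT 1, KO RT 2 and control RT 1. In such bulk samples, fewer cells of a type and less RNA per cell cannot be told apart.

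Knockout against control in cold set apart a pair of the 10 genes. Sacm1l was 2.45-fold lower in KO cold than in control cold, and Gramd1b was 1.84-fold higher. The tethers, both Osbpl genes and the other GRAMD1 genes did not pass. The count of 2 in 10 stood beside 5.93% of all tested genes called in the same comparison. By direction it was 1 in 10 higher beside 2.44% of all tested genes (270), and 1 in 10 lower beside 3.49% (387). DESeq2 also called 2 of the 10 and 667 genes in all, against 657 in edgeR. Without KO cold 2, KO cold 3, control cold 1, control cold 2 or control cold 3, each left out alone, 1 of the 10 stayed called, Sacm1l. Over all genes the count was 425 without KO cold 1, 417 without KO cold 2, 400 without KO cold 3, 392 without KO cold 4 and 438 without control cold 2. When library totals alone set the scale, the split over all genes was 472 higher and 264 lower, with the same pair of members called. The median log2 fold change of the 10 genes was −0.11, beside −0.01 for all tested genes, and 7 of the 10 values were negative. The groups did not overlap for 2 of the 10 genes, beside 12.8% of all tested genes.

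**Figure D1:**
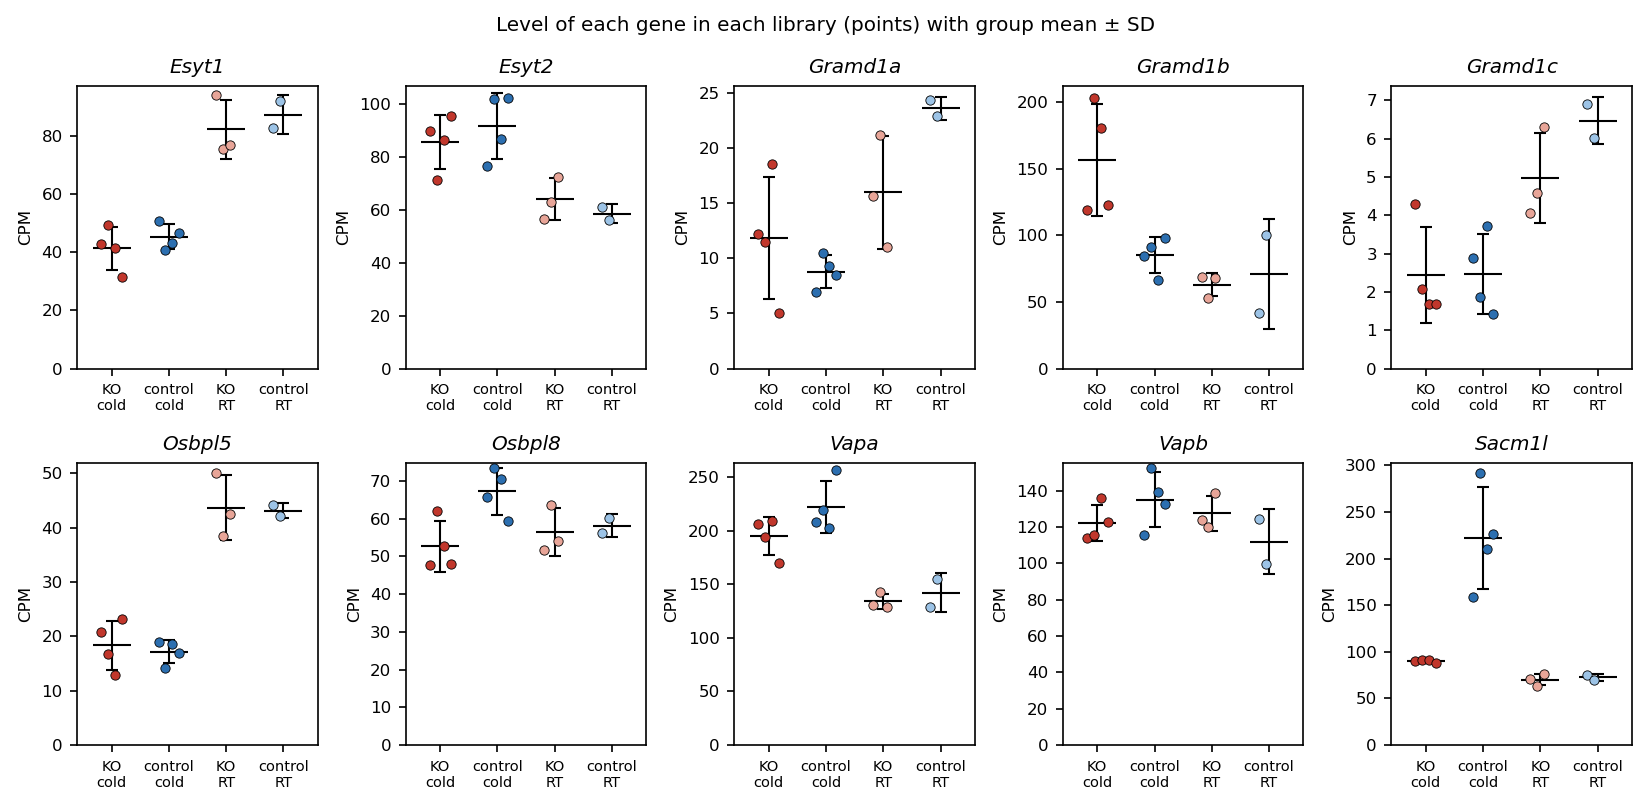
Level of each of the 10 genes in every library (points, CPM on the y axis, each panel on its own scale from 0), with the mean and SD of each group as lines. Sacm1l stood at 158 to 292 CPM in control cold and at 91.7 CPM or below everywhere else, and Gramd1b was highest in KO cold.

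At RT none of the 10 genes was called between KO and control by edgeR's quasi-likelihood test, beside 0% of all tested genes, and none of the 10 reached an unadjusted p under 0.05. DESeq2 called none of the 10 and 8 genes in all, and 346 of all tested genes had an unadjusted edgeR p under 0.05. The groups did not overlap for 1 of the 10, Gramd1a, beside 16.6% of all tested genes. With 2 control RT samples, the intervals were wide. For Sacm1l the 95% interval of the log2 difference ran from −0.47 to 0.38, and for Gramd1b from −0.80 to 0.50.

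Cold exposure moved more of the set. In KO tissue, 2 genes rose in cold (Gramd1b and Vapa) and 2 fell (Osbpl5 and Esyt1). In control tissue, 3 rose (Sacm1l, Esyt2 and Vapa) and 4 fell (Gramd1a, Gramd1c, Osbpl5 and Esyt1). The 4 of 10 in KO stood beside 18.9% of all tested genes called in that comparison (9.43%, or 1044, higher and 9.45%, or 1046, lower), and DESeq2 also called 4, with 1812 genes in all against 2090 in edgeR. Without KO RT 1 the same comparison called 4 of the 10, beside 1219 genes (11.1%). The 7 of 10 in control stood beside 25.2% (12.7%, or 1401, higher and 12.6%, or 1392, lower), and DESeq2 called 6, with 2367 genes in all against 2793 in edgeR. Without control RT 1, the library highest in muscle markers, 3 of the 10 were called in control, beside 1067 genes (9.25%). With library totals as the scale, the splits over all genes were 750 higher and 1455 lower in KO and 789 higher and 2335 lower in control. KO cold against control cold shares its libraries with each cold response, so the values of the comparisons are set side by side only. The groups did not overlap for 5 of the 10 genes in KO, beside 32.2% of all tested genes, and for 7 of the 10 in control, beside 40.4%. The median log2 fold change of the 10 genes was −0.08 in KO, beside −0.01 for all tested genes, and 0.24 in control, beside −0.02. All 10 skeletal muscle markers had negative values in cold against RT in both genotypes. Of them edgeR called 2 in KO and 7 in control, and DESeq2 called 1 and 0. In control, RT 1 summed to 2106 CPM of these markers, while RT 2 (18.7 CPM) lay below control cold 3 (155 CPM) and control cold 4 (202 CPM). With the 3 RT libraries above 500 CPM of these markers left out, an alternative chosen after the marker sums were seen, 3 of the 10 genes were called in KO (Gramd1b, Osbpl5 and Esyt1), beside 4.01% of 11285 tested genes, and 3 in control (Sacm1l, Osbpl5 and Esyt1), beside 7.71%. That setting leaves 1 KO RT and 1 control RT library, each assumed to vary like the other groups. The control RT library kept, control RT 2, was itself apart in other markers. Ptprc, listed as a marker of carried-over adrenal, thymus or lymph node tissue, had 47.0 CPM there, against 4.03 to 13.8 CPM in the other libraries. Its 6 lymphocyte markers summed to 9.04 CPM, against 0.522 to 2.87 CPM in the others. The part of such tissue in the values was not tested.

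**Figure D2:**
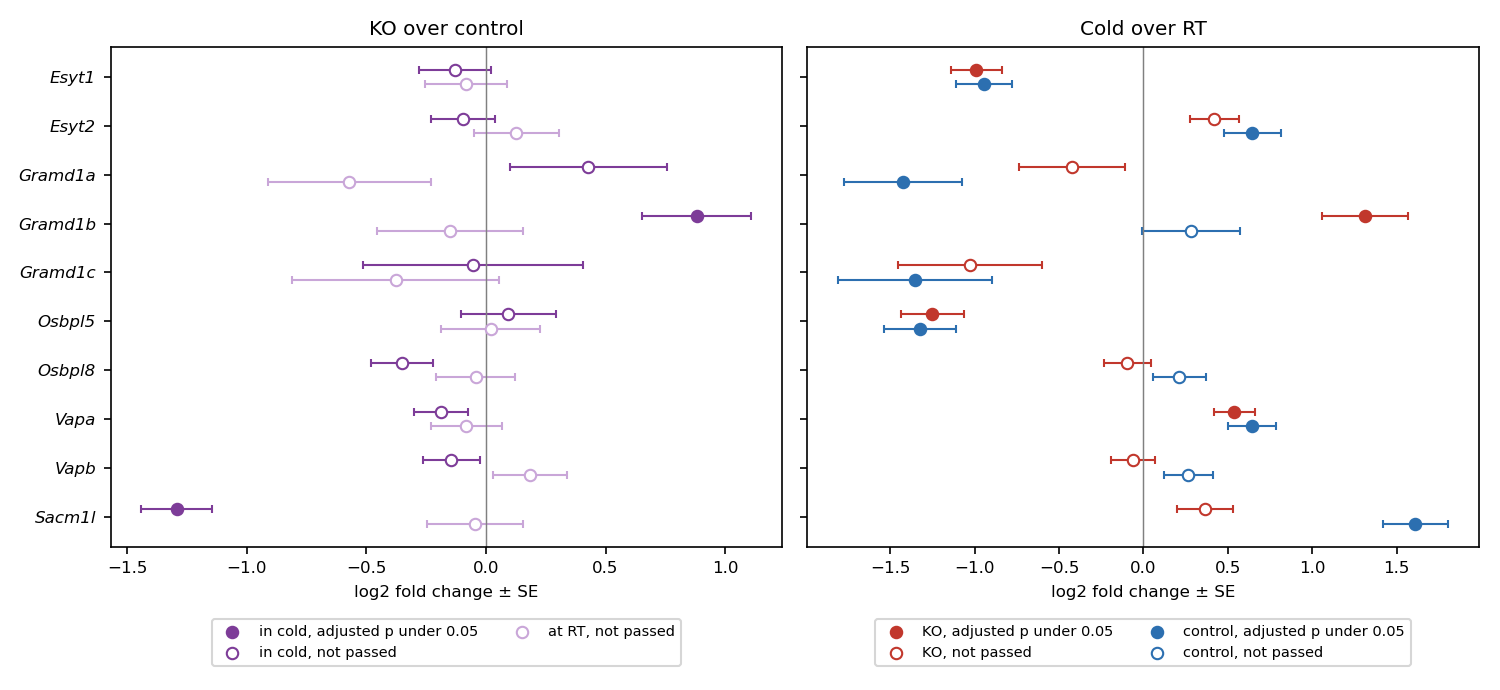
Log2 fold change ± SE of each of the 10 genes (rows), KO over control on the left (cold above RT in each row) and cold over RT on the right (KO above control in each row); filled points passed an adjusted p of 0.05. Sacm1l (−1.29) and Gramd1b (0.88) are the filled points on the left, while Esyt1 and Osbpl5 lie left of 0 and Vapa right of 0 in both genotypes on the right.

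Vapa and Vapb encode the paired ER anchors whose cytoplasmic domain binds a short motif shared by many lipid transfer proteins, among them ORP family members. Vapa (ENSMUSG00000024091.10, chromosome 17) had 206, 194, 209 and 170 CPM in KO cold, against 208, 219, 203 and 257 CPM in control cold. It had 131, 142 and 129 CPM in KO RT and 129 and 155 CPM in control RT. Every cold library stood above every RT library, whatever the genotype, while KO and control overlapped at each temperature. Vapa rose in cold by a log2 fold change of 0.54 ± 0.12 in KO (adjusted p = 0.00577, edgeR) and 0.64 ± 0.14 in control (adjusted p = 0.00362). The control call was lost without control RT 1 (adjusted p = 0.0837), the library highest in muscle markers. With all 3 muscle-high RT libraries left out, neither call was kept (adjusted p = 0.114 in KO and 0.125 in control), at log2 fold changes of 0.59 and 0.51. Vapb (ENSMUSG00000054455.6, chromosome 2) averaged 122 ± 10.1 CPM in KO cold (SD, n = 4), 135 ± 15.3 CPM in control cold (SD, n = 4), 128 ± 9.78 CPM in KO RT (SD, n = 3) and 112 ± 17.8 CPM in control RT (SD, n = 2). All 4 groups overlapped, and Vapb passed no test, with the smallest adjusted p of 0.199 for cold in control.

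The extended synaptotagmin genes went opposite ways in cold in control tissue. Esyt1 encodes the tether that rising cell calcium draws to the plasma membrane, and Esyt2 one that sits there more constantly. Esyt1 (ENSMUSG00000025366.9, chromosome 10) had 42.8, 49.6, 41.6 and 31.6 CPM in KO cold, against 50.7, 40.8, 43.4 and 46.6 CPM in control cold. It had 94.2, 75.7 and 77.2 CPM in KO RT and 82.8 and 92.2 CPM in control RT. The cold and RT libraries did not overlap in either genotype. Esyt1 fell in cold, with a log2 fold change of −0.99 ± 0.15 in KO (adjusted p = 0.000300, edgeR) and −0.94 ± 0.17 in control (adjusted p = 0.000828). Both calls were kept with any 1 library left out and without the muscle-high RT libraries. Between KO and control in cold Esyt1 differed by −0.13 (95% interval −0.45 to 0.19).

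Esyt2 (ENSMUSG00000021171.9, chromosome 12) had 90.0, 71.5, 86.6 and 95.4 CPM in KO cold, against 76.6, 101.9, 86.7 and 102 CPM in control cold. It had 56.7, 63.1 and 72.4 CPM in KO RT and 61.2 and 56.0 CPM in control RT. In control all cold libraries were above both RT libraries, and in KO the lowest cold library (71.5 CPM) lay just under the highest RT library (72.4 CPM). Esyt2 rose in cold in control (log2 fold change 0.64 ± 0.17, adjusted p = 0.0113, edgeR), but the adjusted p was 0.0649 or 0.0662 without either control RT library, and 0.0519 with library totals as the scale. In KO the value was 0.42 ± 0.15 and did not pass (adjusted p = 0.0552), and it did pass without KO cold 2 (0.0330), control cold 1 (0.0469), control cold 4 (0.0499) or KO RT 3 (0.0467), and in a fit of only the 2 KO groups (0.0429). The difference between the cold responses of the genotypes was −0.22 (95% interval −0.69 to 0.25).

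The starts of both synaptotagmin genes are shown because this pair moved in opposite directions. Each sequence is 250 bases upstream of a RefSeq gene start in GRCm38.p6, written 5′ to 3′ on the gene's strand, at chr10:128525860-128526109 (minus strand) for Esyt1 and chr12:116280972-116281221 (plus strand) for Esyt2. Capitals mark matches to CCAAT in Esyt1 and to TGACG, read on either strand, in Esyt2.
Esyt1 promoter: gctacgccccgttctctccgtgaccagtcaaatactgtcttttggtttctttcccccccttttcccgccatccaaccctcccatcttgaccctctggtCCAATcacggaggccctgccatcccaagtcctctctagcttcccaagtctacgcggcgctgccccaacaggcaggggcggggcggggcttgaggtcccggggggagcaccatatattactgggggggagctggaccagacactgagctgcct
Esyt2 promoter: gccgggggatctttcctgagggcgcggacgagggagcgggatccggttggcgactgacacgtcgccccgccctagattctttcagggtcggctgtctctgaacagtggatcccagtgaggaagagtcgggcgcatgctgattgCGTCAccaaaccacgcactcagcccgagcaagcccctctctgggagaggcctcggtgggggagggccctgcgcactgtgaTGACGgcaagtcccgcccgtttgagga
The Esyt1 window held 1 CCAAT and no TGACG, and the Esyt2 window held 2 TGACG and no CCAAT.

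The GRAMD1 genes encode ER proteins that sense accessible cholesterol at the plasma membrane and carry it to the ER, and 1 of the 3, Gramd1b, was called between genotypes. Gramd1b (ENSMUSG00000040111.18, chromosome 9) had 119, 203, 181 and 122 CPM in KO cold, against 84.7, 91.4, 66.3 and 98.1 CPM in control cold. It had 68.4, 52.8 and 67.7 CPM in KO RT and 41.8 and 100.04 CPM in control RT. Every KO cold library stood above every other library, and the other 3 groups overlapped. Gramd1b rose in KO cold against control cold, with a log2 fold change of 0.88 ± 0.23 (adjusted p = 0.0308, edgeR). Leaving out 1 library ended this call in 5 of 13 cases: KO cold 2 (adjusted p = 0.101), KO cold 3 (0.0889), control cold 1 (0.0641), control cold 2 (0.0598) and control cold 3 (0.0791). The log2 fold change then stayed between 0.73 and 0.99 over all 13. Within KO tissue Gramd1b rose in cold by 1.31 ± 0.25 (adjusted p = 0.00196), a call kept in all 13 leave-outs. Within control tissue the value was 0.28 ± 0.29 (adjusted p = 0.513), which was 1.04 without control RT 2 (adjusted p = 0.0267) and −0.24 without control RT 1. The difference between the cold responses was 1.03 ± 0.38 and did not pass (adjusted p = 0.483, edgeR). Leaving out 1 library gave 0.29 to 1.56, with no pass. With no filter on low counts it passed (1.03, adjusted p = 0.0101), so this call depended on the filter.

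Gramd1a (ENSMUSG00000001248.16, chromosome 7) had 12.2, 11.5, 18.6 and 5.08 CPM in KO cold, against 6.91, 10.5, 9.29 and 8.47 CPM in control cold. It had 15.7, 21.2 and 11.02 CPM in KO RT and 24.4 and 22.9 CPM in control RT. Both control RT libraries stood above all others, and KO cold and KO RT overlapped. Gramd1a fell in cold in control (log2 fold change −1.42 ± 0.35, adjusted p = 0.00714, edgeR), a call lost without control RT 1 (−1.38, adjusted p = 0.0634) or without the muscle-high RT libraries (adjusted p = 0.0749). In KO it had −0.42 ± 0.31 (adjusted p = 0.377). The difference of responses was 0.9997 ± 0.47 and did not pass (adjusted p = 0.604).

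Gramd1c (ENSMUSG00000036292.15, chromosome 16) was the scarcest of the 10, with 2 to 15 counts in a library. It averaged 2.44 ± 1.24 CPM in KO cold (SD, n = 4), 2.47 ± 1.04 CPM in control cold (SD, n = 4), 4.98 ± 1.17 CPM in KO RT (SD, n = 3) and 6.46 ± 0.616 CPM in control RT (SD, n = 2). In control the cold range, 1.41 to 3.72 CPM, lay under the RT values of 6.90 and 6.03 CPM. It fell in cold in control (log2 fold change −1.35 ± 0.46, adjusted p = 0.0390, edgeR), and this call was kept in 8 of 13 leave-outs. It was lost without control cold 1 (adjusted p = 0.0589), control cold 2 (0.0794), control cold 4 (0.0864), control RT 1 (0.229) or control RT 2 (0.0846), and DESeq2 did not call it (adjusted p = 0.110). It was also lost with no filter on low counts (adjusted p = 0.0884, edgeR), in a fit of only the 2 control groups (0.0727), with the replicate block (0.0892) and without the muscle-high RT libraries (0.262), so 2 of 7 settings other than leave-outs kept it. In KO the value was −1.03 ± 0.43 (adjusted p = 0.103), which passed without KO cold 1 (adjusted p = 0.0486).

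ORP5 and ORP8 are anchored in the ER and reach the plasma membrane to exchange phosphatidylserine for phosphatidylinositol 4-phosphate, and Osbpl5 fell in cold in both genotypes while Osbpl8 passed no test. Osbpl5 (ENSMUSG00000037606.19, chromosome 7) had 20.8, 16.7, 12.9 and 23.1 CPM in KO cold, against 19.0, 14.2, 18.6 and 16.9 CPM in control cold. It had 50.1, 38.4 and 42.5 CPM in KO RT and 44.1 and 42.2 CPM in control RT. Every cold library lay below every RT library, and the genotypes overlapped at each temperature. Osbpl5 fell in cold by 2.38-fold in KO (log2 fold change −1.25 ± 0.19, adjusted p = 0.000278, edgeR) and by 2.50-fold in control (−1.32 ± 0.21, adjusted p = 0.000364). Both calls were kept in all 13 leave-outs and without the muscle-high RT libraries (adjusted p = 0.0302 in KO and 0.0165 in control). The difference of responses was 0.07 (95% interval −0.53 to 0.68).

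Osbpl8 (ENSMUSG00000020189.16, chromosome 10) had 47.7, 62.1, 52.9 and 48.0 CPM in KO cold, against 65.7, 73.5, 70.6 and 59.3 CPM in control cold. It had 51.7, 63.7 and 54.1 CPM in KO RT and 56.1 and 60.3 CPM in control RT. The genotypes overlapped in cold through 1 KO library at 62.1 CPM and 1 control library at 59.3 CPM. Osbpl8 was at −0.35 ± 0.13 in KO cold against control cold, with an unadjusted p of 0.0145 and an adjusted p of 0.123, and did not pass. Cold against RT gave −0.10 ± 0.14 in KO and 0.21 ± 0.16 in control, neither past the test.

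Sacm1l (ENSMUSG00000025240.11, chromosome 9) showed the largest difference of the 10 between genotypes in cold. It had 90.6, 91.3, 91.7 and 88.0 CPM in KO cold, against 158, 292, 211 and 227 CPM in control cold. It had 70.9, 63.7 and 76.1 CPM in KO RT and 74.9 and 69.9 CPM in control RT. The control cold libraries stood apart above all others, the 4 KO cold libraries lay between 88.0 and 91.7 CPM, and the genotypes overlapped at RT. Sacm1l fell in KO cold against control cold, with a log2 fold change of −1.29 ± 0.15 (adjusted p = 6.87e-05, edgeR), and was called in all 13 leave-outs (−1.42 to −1.13). It rose in cold by 3.06-fold in control (1.61 ± 0.19, adjusted p = 3.82e-05), also in all 13 leave-outs and without the muscle-high RT libraries (1.66, adjusted p = 0.00323). In KO the cold value was 0.36 ± 0.17 (adjusted p = 0.143, and 0.0359 in a fit of only the 2 KO groups), although the KO cold libraries all lay above the KO RT libraries. The difference of cold responses, KO minus control, was −1.25 ± 0.25 (unadjusted p = 0.000124). Its adjusted p was 0.152 in edgeR, 0.0295 without control cold 1, 0.00605 in DESeq2 and 0.000281 with no filter on low counts, so this call depended on the setting. On the opposite strand, Slc6a20b overlaps the last stretch of Sacm1l in the GENCODE M21 annotation, and it held 2 counts in control cold 4 and 0 in the other 12 libraries. In the same annotation Mir6916 lies in the last stretch of Esyt1 on its strand, and no other member had a gene overlapping its last stretch.

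The start of Sacm1l is shown as the gene that differed most between genotypes in cold. The window is 250 bases upstream of the RefSeq start in GRCm38.p6, at chr9:123529503-123529752 on the plus strand, written 5′ to 3′, with capitals at matches to CCAAT and to TGACG on either strand.
Sacm1l promoter: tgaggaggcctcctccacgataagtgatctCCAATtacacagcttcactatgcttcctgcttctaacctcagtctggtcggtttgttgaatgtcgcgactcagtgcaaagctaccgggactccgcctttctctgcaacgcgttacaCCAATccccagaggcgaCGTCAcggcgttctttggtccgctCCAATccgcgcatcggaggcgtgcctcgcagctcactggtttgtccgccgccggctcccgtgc
It held 3 CCAAT and 1 TGACG, which reads as CGTCA on the strand shown. RefSeq starts were found for 9 of the 10 genes (all but Gramd1b), in 13 windows since Gramd1c and Osbpl5 have 3 each. CCAAT, the letters of the CCAAT box, was in 5 of the 13 windows, against 33.8% of 32851 windows of the same length over all genes. TGACG, the core of the cAMP response element, was in 4 of 13, against 17.8% of all windows. The full element TGACGTCA, which contains TGACG, was in 0 of 13 against 1.55%, the ER stress response element, which contains CCAAT, in 0 of 13 against 0.113%, the estrogen-related receptor element TCAAGGTCA in 0 of 13 against 0.387%, and the NFAT core GGAAA in 6 of 13 against 55.6%. Both strands were searched, the motifs were chosen with values known, and a match describes letters only.

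No gene of the 10 was called for the difference between the cold responses of KO and control in edgeR's quasi-likelihood test, beside 0.0181% of all tested genes. By unadjusted p under 0.05 there were 2 of the 10 (Gramd1b and Sacm1l) and 913 of all tested genes, and DESeq2 called 1 of the 10 (Sacm1l) and 28 genes in all. Gramd1b had a positive value and Sacm1l a negative one, while the 95% intervals of the other 8 genes held 0.

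Esyt1 and Osbpl5 held a smaller mean share of their family's counts in cold than at RT, and Gramd1b and Vapa a larger one. The share of a paralog was its counts over those of its family in a library, and it carries the same values as the levels above. Esyt1 made up 32.6% ± 6.56 of the Esyt1 and Esyt2 counts in KO cold (SD, n = 4), 33.3% ± 4.79 in control cold (SD, n = 4), 56.2% ± 5.60 in KO RT (SD, n = 3) and 59.9% ± 3.31 in control RT (SD, n = 2). Osbpl5 made up 25.9% ± 6.46 of the Osbpl5 and Osbpl8 counts in KO cold, 20.4% ± 2.91 in control cold, 43.6% ± 5.82 in KO RT and 42.6% ± 2.02 in control RT, over the same numbers of libraries. For both pairs, no cold library reached the share of any RT library. Gramd1b held 91.6% ± 3.25 of the GRAMD1 counts in KO cold, 88.0% ± 3.17 in control cold, 74.8% ± 6.69 in KO RT and 67.4% ± 14.4 in control RT. Vapa held 61.4% ± 2.77 of the Vapa and Vapb counts in KO cold, 62.1% ± 3.54 in control cold, 51.3% ± 3.02 in KO RT and 55.9% ± 7.07 in control RT, and here control cold (59.0% to 65.9%) and control RT (50.9% to 60.9%) overlapped. These shares are a description and were not tested.

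**Figure D3:**
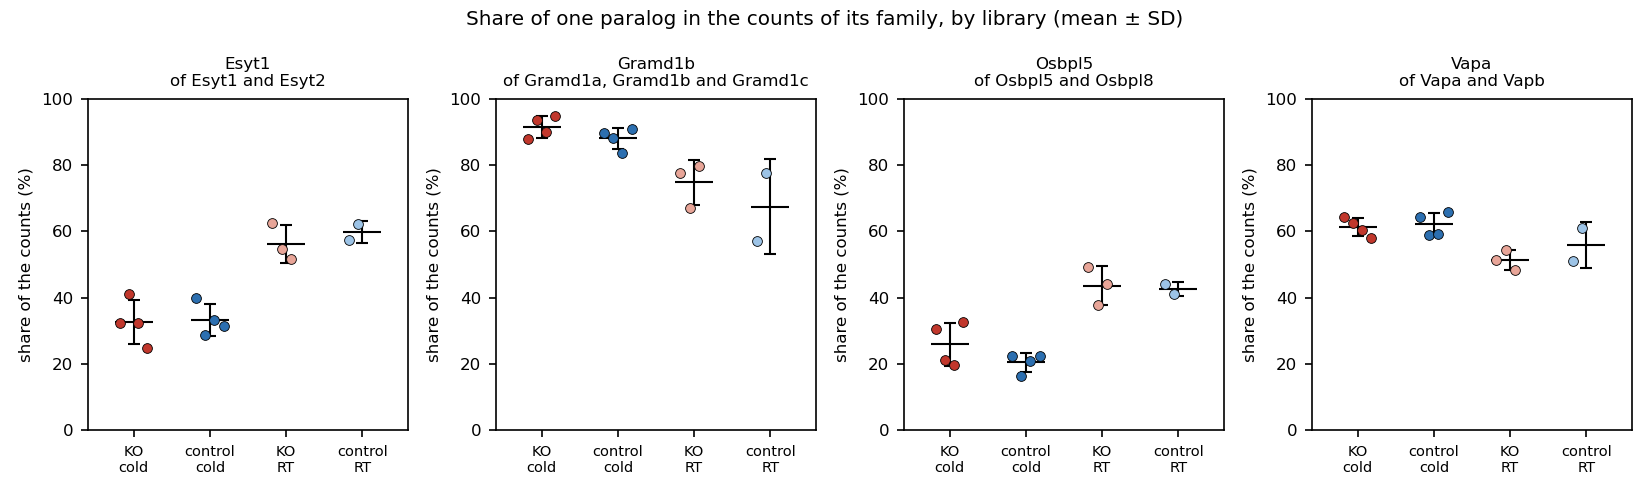
Share (%, y axis) of the counts of a family held by 1 paralog in each library (points), with group mean and SD as lines. The shares of Esyt1 and Osbpl5 lie lower in every cold library than in every RT library, in both genotypes.

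Related genes of the same membrane chemistry were read from 5 lists with 53 tested genes. Of these edgeR called 6 in KO cold against control cold, beside 5.93% of all tested genes. In cold against RT it called 18 in KO, beside 18.9%, and 17 in control, beside 25.2%. The counts for single lists below stand beside the same shares. Of 13 tested genes that supply phosphatidylinositol 4-phosphate or turn it into the next lipid, 1 rose and 2 fell in KO cold against control cold. In that comparison 4 of the 13 had an unadjusted edgeR p under 0.05. Ttc7, a subunit of the plasma membrane kinase complex, averaged 15.2 ± 4.07 CPM in KO cold, against 5.43 ± 3.50 CPM in control cold (log2 fold change 1.43 ± 0.37, adjusted p = 0.0296, edgeR). Pip5k1a, the kinase that makes phosphatidylinositol bisphosphate, averaged 139 ± 15.1 CPM in KO cold, against 197 ± 8.85 CPM in control cold (−0.50 ± 0.13, adjusted p = 0.0277). Pitpna, a phosphatidylinositol transfer protein, averaged 81.8 ± 8.04 CPM in KO cold, against 119 ± 21.0 CPM in control cold (−0.53 ± 0.15, adjusted p = 0.0432), with 4 libraries behind each of these means. In cold against RT, 3 of the 13 rose and 0 fell in KO, and 4 rose and 1 fell in control, with Pip5k1a at 0.62 and 0.86, Pitpna at 0.57 and 0.88 and the kinase complex gene Fam126b at 0.77 and 0.97 (log2 fold change, KO and then control). In control Efr3a, which anchors that complex, rose by 0.68.

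Of 12 tested genes of sterol uptake, storage and synthesis, 2 rose and 0 fell in KO cold against control cold. An unadjusted edgeR p under 0.05 was reached by 7 of the 12, beside 2224 of all 11073 tested genes. Npc1, which exports cholesterol from lysosomes, averaged 79.3 ± 18.2 CPM in KO cold, against 34.0 ± 5.75 CPM in control cold (SD, n = 4 each), a log2 fold change of 1.22 ± 0.18 (adjusted p = 0.000848, edgeR). Scarb1, the receptor for high-density lipoprotein, averaged 39.4 ± 4.96 CPM in KO cold, against 22.8 ± 8.08 CPM in control cold (0.79 ± 0.19, adjusted p = 0.0226), though single libraries overlapped. The median of the list was −0.36, since 9 of the 12 values were negative, beside −0.01 for all tested genes. In cold against RT, 2 rose and 3 fell in KO (Scarb1 at −1.01, the cholesterol exporter Abca1 at −0.82, Npc2 at −0.43, Npc1 at 0.76 and Sqle at 1.27), and 1 rose and 1 fell in control, Sqle, an enzyme of sterol synthesis, at 1.27 and Scarb1 at −1.83.

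Of 11 tested genes for other tethers and junction proteins, 0 rose and 1 fell in KO cold against control cold, and 2 had an unadjusted edgeR p under 0.05. The gene that fell was Gramd3, a relative of the GRAMD1 genes, at 30.2 ± 2.20 CPM in KO cold, against 48.1 ± 12.4 CPM in control cold (log2 fold change −0.67 ± 0.19, adjusted p = 0.0408, edgeR). Gramd3 rose in cold by 0.70 in KO, the single call there, and by 1.13 in control, where Mospd1 also rose (0.87) and C2cd2 fell (−1.13). None of 9 tested genes of the oxysterol-binding protein family outside Osbpl5 and Osbpl8 was called between genotypes in cold by edgeR or DESeq2, and 2 had an unadjusted edgeR p under 0.05. In cold against RT, 3 of them rose and 2 fell in KO, Osbpl11 (0.68), Osbp (0.66), Osbpl9 (0.38), Osbpl1a (−0.69) and Osbpl6 (−1.21), and 2 rose and 1 fell in control, Osbpl11 (0.62), Osbpl9 (0.47) and Osbpl7 (−1.51). Of 8 tested genes for VAP-bound lipid transfer proteins and tethers at other organelles, none was called between genotypes in cold by edgeR or DESeq2, and 1 had an unadjusted p under 0.05. Rmdn3, a tether to mitochondria, rose in cold by 0.93 in KO and 0.77 in control, Pdzd8 by 0.93 and 0.81 and Vps13d by 0.60 and 0.55, while Vps13a fell (−0.39 in KO and −0.44 in control). Of the 53 tested genes of the 5 lists, 0 were called between genotypes at RT and 0 for the difference of responses by edgeR or DESeq2, with 1 and 7 at an unadjusted edgeR p under 0.05.

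**Figure D4:**
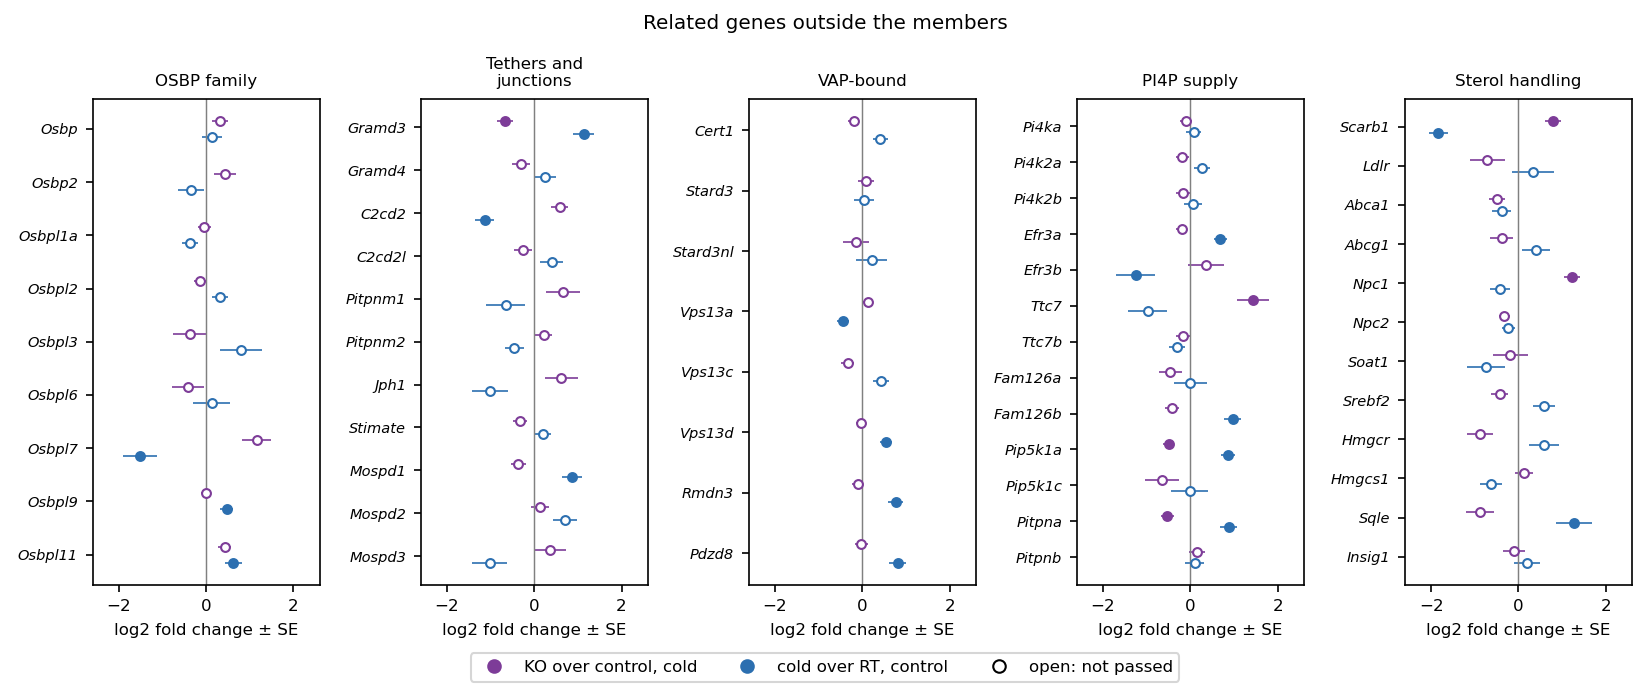
Log2 fold change ± SE of tested genes in 5 lists of related genes, KO over control in cold (upper point of each row) and control cold over control RT (lower point); filled points passed an adjusted p of 0.05. Npc1, Scarb1 and Ttc7 are the filled KO over control points right of 0, and Gramd3, Pip5k1a and Pitpna those left of 0.

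For each of the 8 genes called in any comparison, the 3 tested genes with the closest pattern were found by Pearson's r of log2 CPM over the 13 libraries, given as a description over libraries that share the same 4 groups. Gramd1b lay closest to Hsp90b1 (r = 0.934), Hspa5 (0.918) and Dnajb11 (0.907), and Sacm1l to Ubl3 (0.968), Cyrib (0.965) and Aspa (0.964). Osbpl5 lay closest to Ankra2 (0.969), Rab3d (0.968) and Ano1 (0.959), Vapa to Tatdn2 (0.981), Ltv1 (0.980) and Eif3c (0.979), and Esyt1 to Angpt1 (0.958), Ifi203 (0.956) and Svep1 (0.951). Esyt2 lay closest to Vdac2 (0.942), Dpep1 (0.942) and Prdx1 (0.934), Gramd1a to Sugp2 (0.920), Get1 (0.920) and Papss1 (0.894), and Gramd1c to Tsen34 (0.956), Fam219b (0.936) and Emc9 (0.915).

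Markers of other cells moved beside some of these results. In KO cold against control cold, all 7 tested fibroblast markers and all 7 tested macrophage markers had negative values. None passed edgeR's test or DESeq2's, with 1 of the fibroblast and 2 of the macrophage markers at an unadjusted edgeR p under 0.05. Fibroblast markers summed to 554 to 647 CPM in the KO cold libraries, against 507 to 1477 CPM in control cold, and macrophage markers to 111 to 138 CPM in the KO cold libraries, against 101 to 294 CPM in control cold. The fibroblast and macrophage sums overlapped between genotypes. The 6 Schwann cell and nerve markers summed to 70.9 to 108.9 CPM in the KO cold libraries, against 111.5 to 199.6 CPM in control cold, and did not overlap. Of the 4 tested, Pmp22, a peripheral myelin protein gene, fell in KO cold against control cold (log2 fold change −1.24 ± 0.22, adjusted p = 0.00322, edgeR). Mbp, for another myelin protein, was at −0.74 ± 0.22 (adjusted p = 0.0527 in edgeR and 0.0375 in DESeq2). In the same comparison edgeR and DESeq2 called 0 of the 10 skeletal muscle, 8 endothelial, 6 smooth muscle and pericyte and 5 erythrocyte markers tested, and none of them had an unadjusted edgeR p under 0.05. Of the 10 brown adipocyte markers edgeR called 0 and DESeq2 called 2, Ucp1 and Plin1, with 3 at an unadjusted edgeR p under 0.05. Ucp1 was lower in KO cold (log2 fold change −0.40). Plin1 was higher, at 1368 to 1479 CPM in KO cold against 1139 to 1264 CPM in control cold. Of the 10 log2 fold changes, 5 were positive and 5 negative. In KO cold against KO RT, 5 of the 7 fibroblast markers fell in edgeR (4 in DESeq2). In control cold against control RT both called 0 of the 7, with 0 at an unadjusted edgeR p under 0.05. The same counts of 0 held for the difference of responses, where all 7 values were negative. Fibroblast sums were 1477 CPM in control cold 2, against 507 to 837 CPM in the other control cold libraries. They were 1353 CPM in KO RT 1, against 673 and 873 CPM in the other KO RT libraries. The part of these cells in the values of the 10 genes was not tested.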

How the data were processed

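RNA of brown adipose tissue was extracted with TRIzol and a column kit, and libraries were made with a QuantSeq 3′ kit, per the labels' protocols. The authors deposited 1 table of raw counts per Ensembl gene, whole numbers without scaling. Tools listed in the submitters' processing notes are STAR 2.7.10b, HTSeq 0.12.3, Trim Galore 0.6.7, UMI-tools 1.1.2, limma and edgeR, with the build GRCm39. What each did, and any use of strand or molecular identifiers, is not given in the sources used here, so a gene and its antisense partner cannot be told apart. Sequences and overlaps come from reference tables of another build (GRCm38).

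The table held 55632 lines, and 275 repeated identifiers were dropped. Counts of 13 libraries (1570684 to 2016178 counts each) were tested with edgeR 4.0.16 (R 4.3.3): filterByExpr (minimum count 10), scaling by the trimmed mean of M values, 1 quasi-likelihood fit with 1 term for each group (common biological coefficient of variation 16.1%), 5 two-sided contrasts and Benjamini-Hochberg adjustment over 11073 genes. Genes under an adjusted p of 0.05 are called, and ± on a fold change is the SE. Likeness used log2 CPM with a prior count of 2. The steps were first tested on simulated data. Within groups, replicate pairs had a chi-square of 1.92 to 6.36 per degree of freedom, more than sampling noise gives.

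Alternatives were relative log expression scaling, library totals, no filter, DESeq2 1.42.0, a replicate block, fits of only the 2 groups compared and each library left out, and, added after values were seen, the muscle-high RT libraries left out. The 10 genes, the 5 lists and the marker lists were chosen with earlier results of these data known. Named list genes were those called, at most 4 per list and contrast by smallest p, with others given only to complete a count. Values of single genes for some nerve markers are not reported here.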

Additional observations from a re-analysis of the deposited data

Results flagged for a closer look

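Gramd1c in KO cold had 1 library apart from the others. KO cold 1 stood at 4.28 CPM, against 1.69 to 2.09 CPM in the other 3 libraries, and its gap to the nearest library was 0.846 of the group's range. The counts behind these values were 7 in KO cold 1 and 3 to 4 in the others. Such a gap is met by chance in about 1 in 20 groups, and 20 groups of 4 were examined.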

How the results depend on the processing

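Sacm1l and Gramd1b in KO cold against control cold, and Esyt1 and Osbpl5 in cold against RT, stayed called under all 7 settings other than leaving out 1 library. With library totals, the median of all genes shifted by −0.11 in KO and −0.21 in control for cold against RT. That median shifted by 0.096 for KO cold against control cold and by 0.10 for the difference of responses. On this scale Esyt2 and Gramd1c were at 0.0027 and 0.037 in KO cold against control cold. Esyt1 was at 0.049 for the difference of responses. Without a filter, 50 genes were called between genotypes at RT and 133 (2 of the 10 genes) for the difference; with DESeq2, 8 and 28 (1 of the 10). Fits of 2 groups called 6 of the 9 tested for cold in KO, beside 2523 genes (24.5%), and 6 of the 10 for cold in control, beside 1685 genes (16.2%). Without the 3 muscle-high libraries, 452 genes were called for cold in KO, 870 (3 of the 10) in control and 0 for the difference, and values that had passed no test changed sign: Gramd1c 0.065 and Sacm1l 0.12 at RT, Gramd1a 0.10 for cold in KO, Gramd1b −0.24 for cold in control, and Esyt1 0.13, Gramd1c −0.11 and Vapa 0.081 for the difference. Over 0.1 correlated 3 of 16 same-number pairs of samples (−0.23 to 0.33) and 14 of 46 other pairs (−0.33 to 0.30). Values were taken as deviations from the group mean, which makes the 2 control RT libraries mirror images, so whether replicate numbers pair the samples cannot be settled. With the replicate block 0 of 50 member values changed sign, and 0 genes were called for the difference. The 1 member call lost was Gramd1c for cold in control (adjusted p = 0.0892, edgeR).

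Leaving out 1 library called 392 to 716 genes (1 to 2 of the 10) in KO cold against control cold, 0 to 3 (0) at RT, 1219 to 2271 (4 to 5) for cold in KO, 1067 to 2821 (3 to 7) for cold in control and 0 to 4 (0 to 1) for the difference. Signs changed for Gramd1c (−0.44 to 0.20) and Osbpl5 (−0.038 to 0.23) in KO cold against control cold. At RT they changed for Esyt1 (−0.20 to 0.00016), Gramd1b (−0.67 to 0.60), Osbpl5 (−0.10 to 0.10), Osbpl8 (−0.14 to 0.015), Vapa (−0.22 to 0.058) and Sacm1l (−0.11 to 0.015). They changed for Gramd1b in control (−0.24 to 1.04) and Osbpl8 (−0.18 to 0.0011) and Vapb (−0.12 to 0.0090) in KO for cold against RT, and for Esyt1 (−0.14 to 0.070), Gramd1c (−0.057 to 0.58), Osbpl5 (−0.058 to 0.21) and Vapa (−0.24 to 0.036) for the difference. The cause was not tested. Depth limits Gramd1c most, at 2 to 15 counts a library.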
